A study of Nicotiana tabacum with 6 samples.

Results

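Transcripts of 5 tobacco genes of induced leaf chemistry were followed across the 6 libraries of the series: Lox1 (ncbi_107806322) and aoc (ncbi_107768393) of oxylipin synthesis, NtPAL (ncbi_107792668) and hct (ncbi_107796658) of phenylpropanoid synthesis, and ODC (ncbi_107815922), the ornithine decarboxylase gene. They were chosen by gene number, 5 of 68476 loci in the deposited table, because their transcripts were seen to be high in 2 of the 3 overexpression libraries. That pattern is therefore given as a description, with no test. The series profiled poly(A) RNA from mature leaves of tobacco (Nicotiana tabacum) in 3 libraries labelled OE-NtispH, from plants overexpressing NtispH, and 3 labelled WT, from wild-type plants grown under the same conditions. NtispH encodes the enzyme of the final step of the MEP pathway in plastids, which makes the precursors of plastid terpenoids, and the study's design asks about its part in glandular trichome development. The labels name no promoter, no transgenic line, no plant age and no pooling. Nor do they tie a library to its own plant, so a p-value here weighs a difference against a spread among libraries that may be only technical.

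Oxylipins are signals and defence compounds made from polyunsaturated fatty acids after a lipoxygenase has added oxygen. In tobacco Lox1 encodes a 9-lipoxygenase known from responses to pathogens and elicitors. Allene oxide synthase and allene oxide cyclase, the product of aoc, act on the separate 13-lipoxygenase branch in the plastid, which leads through 12-oxophytodienoic acid (OPDA) to jasmonic acid, the wound hormone. Phenylalanine ammonia-lyase (PAL) takes phenylalanine into the phenylpropanoids, and hydroxycinnamoyl-CoA shikimate/quinate hydroxycinnamoyltransferase, the product of hct, sits at the step that leads to caffeoyl compounds and lignin. Ornithine decarboxylase makes putrescine, the diamine from which polyamines and, in tobacco roots, nicotine are made.

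Values were given as FPKM, fragments scaled by transcript length and by all mapped fragments, so levels can be compared between genes per length, while the number of reads is unknown. All 5 genes passed the filter used for testing, an average of 0.5 FPKM or more across all libraries, as did 40725 loci in all. A library had 48013 to 49085 loci with a value above 0. The locus named ISPH (LOC107760258), taken by its name as the overexpressed gene, did not follow the labels. It stood at 2761, 684.6 and 853.7 FPKM in the libraries labelled OE-NtispH replicates 1, 2 and 3, against 108.2, 3038 and 558.6 FPKM in WT replicates 1, 2 and 3. Its highest value thus lay in a library labelled WT, and all directions below are between libraries as labelled. Whether reads of the transgene fell on this locus or on copies without a name was not examined. The leaf origin was checked with 8 mesophyll loci (Rca at 2 loci, GAPA, GAPB, Lhcb4, Lhcb5, Lhcb6 and CAB21), whose summed level lay between 10839.8 and 13406 FPKM in OE-NtispH and between 15940.2 and 18237 FPKM in WT. Of these, 7 of 8 were lower in every OE-NtispH library than in every WT library. The share of all tested loci in that order was not computed, so nothing is read from this count. The part of the mesophyll loci in the results below was not tested. Of 9 root nicotine loci, 6 were listed at 0 in every library, among them the 4 putrescine N-methyltransferase genes (PMT1 to PMT4). BBLa and BBLc were at no more than 0.589 FPKM. QPT2, of NAD and nicotine synthesis, was not silent, at 16.5 to 37.6 FPKM over the libraries. Only 1 trichome marker was used, NtABS (abienol synthase), at 9.97 to 11.9 FPKM in OE-NtispH and 9.24 to 11.4 FPKM in WT. A single locus cannot show whether trichome content differed. In whole leaves, more cells of one type and more RNA per cell cannot be told apart.

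The 5 genes shared one pattern over the libraries. Each was at least 2 times the highest WT value in OE-NtispH replicate 1 and in OE-NtispH replicate 2, and none was so in OE-NtispH replicate 3. In replicate 1 the level was 6.12 to 20.1 times the WT mean, in replicate 2 it was 3.26 to 7.56 times, and in replicate 3 it was 0.454 to 1.42 times. ODC had the largest ratio in replicate 1 and aoc the smallest in replicate 3.

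**Figure D1:**
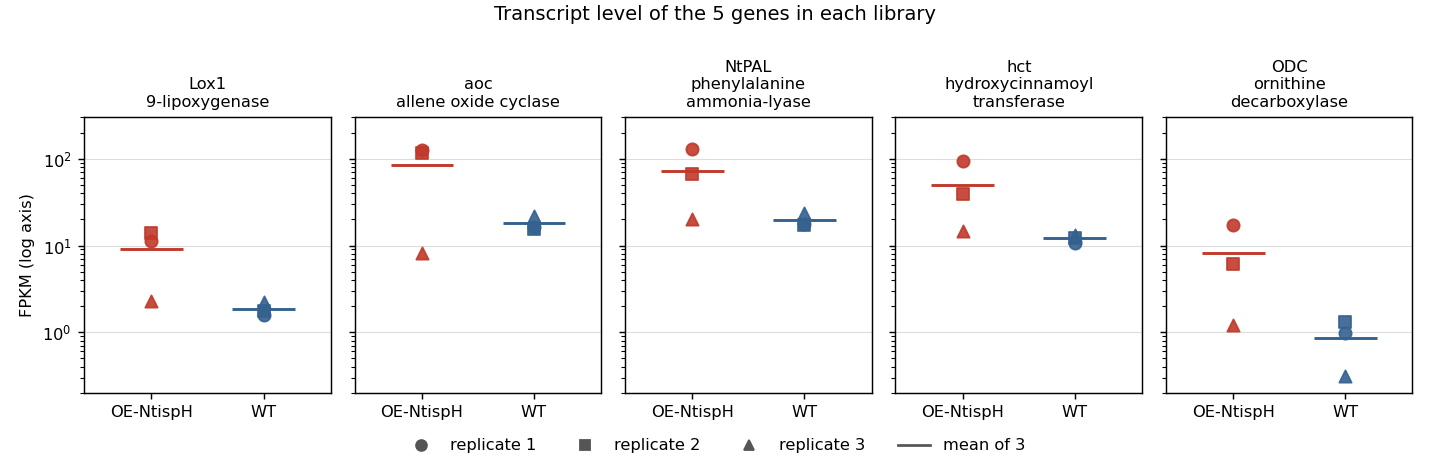
FPKM of the 5 genes on a log axis, with 1 point per library (circle, square and triangle for replicates 1, 2 and 3) and a bar at the mean of the 3 libraries of a group. In every panel the circle and square of OE-NtispH lie above all WT points, while the triangle of OE-NtispH lies among them or close by, and below them for aoc.

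Lox1, the 9-lipoxygenase gene, was at 11.4, 14.0 and 2.29 FPKM in OE-NtispH replicates 1, 2 and 3, against 1.58, 1.74 and 2.25 FPKM in WT replicates 1, 2 and 3. The groups did not overlap, but replicate 3 exceeded the highest WT value by a factor of only 1.02. The means were 9.23 ± 6.15 FPKM in OE-NtispH and 1.85 ± 0.353 FPKM in WT (SD, n = 3 each), a log2 change of 1.58 on the log2(FPKM + 1) scale. It was the only one of the 5 with its highest value in replicate 2.

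The allene oxide cyclase gene aoc was the most abundant of the 5 in replicate 2 of OE-NtispH. Its level was 127.9, 117.2 and 8.16 FPKM in OE-NtispH replicates 1, 2 and 3, against 16.1, 15.7 and 22.1 FPKM in WT replicates 1, 2 and 3. Replicate 3 lay below every WT library, at 45.4% of the WT mean, and was the only value of the 5 genes in any OE-NtispH library that did so. The means were 84.4 ± 66.3 FPKM in OE-NtispH and 18.0 ± 3.61 FPKM in WT (SD, n = 3 each), and the log2 change was 1.47.

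AOS (LOC107783985), for the allene oxide synthase that acts just before allene oxide cyclase, did not share the high values. It was at 13.4, 14.7 and 8.50 FPKM in OE-NtispH and at 13.4, 11.1 and 14.1 FPKM in WT (limma, adjusted p = 0.785). The transcript of aoc was therefore 9.52, 7.98 and 0.960 times as abundant as that of AOS in OE-NtispH replicates 1, 2 and 3, against 1.21 to 1.57 times in WT. Genes beyond aoc in the pathway had smaller ratios. The OPDA reductase gene opr3 (LOC107782790) was at 52.1, 44.0 and 27.1 FPKM in OE-NtispH and at 26.4, 26.4 and 29.7 FPKM in WT (limma, adjusted p = 0.187), and OPR1 (LOC107789205) at 6.93, 7.37 and 5.34 FPKM in OE-NtispH against 5.54, 4.75 and 3.79 FPKM in WT (limma, adjusted p = 0.165).

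NtJAZ2 (LOC107767538), a repressor of jasmonate responses whose family is itself induced by jasmonate, was at 182.7, 177.2 and 103.1 FPKM in OE-NtispH, against 89.0, 71.3 and 83.9 FPKM in WT. The log2 difference was 0.87 ± 0.22 (SE; limma, adjusted p = 0.0714), short of the threshold of 0.05. All OE-NtispH libraries lay above all WT libraries, as they did for 23.9% of tested loci. NtHPL1 (LOC107807769), for hydroperoxide lyase, which diverts lipoxygenase products to leaf aldehydes, was at 5.40, 5.97 and 4.71 FPKM in OE-NtispH against 3.59, 4.65 and 3.66 FPKM in WT (limma, adjusted p = 0.161). NtFAD7 (LOC107783156), a plastid desaturase that supplies the fatty acid substrate, stayed between 111.1 and 138.1 FPKM in OE-NtispH and between 125.0 and 130.5 FPKM in WT. The divinyl ether synthase gene DES1 and opr2 were listed at 0 in all libraries.

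NtPAL, one of 4 named loci for phenylalanine ammonia-lyase, had the highest level among the 5 genes in replicate 1. It was at 131.4, 66.2 and 20.2 FPKM in OE-NtispH replicates 1, 2 and 3, against 17.7, 17.4 and 24.0 FPKM in WT replicates 1, 2 and 3. Replicate 3 lay within the WT range, at 102.5% of the WT mean. The means were 72.6 ± 55.9 FPKM in OE-NtispH and 19.7 ± 3.72 FPKM in WT (SD, n = 3 each), and the log2 change was 1.48.

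The other PAL loci were likewise highest in OE-NtispH replicates 1 and 2, with smaller ratios to WT. The locus palA (LOC107786762) was at 69.6, 47.1 and 15.9 FPKM in OE-NtispH and at 17.7, 17.5 and 23.6 FPKM in WT (limma, adjusted p = 0.336). The locus palB (LOC107761482) was at 10.8, 7.215 and 2.14 FPKM in OE-NtispH against 3.26, 3.13 and 3.28 FPKM in WT (limma, adjusted p = 0.401), and pal4 (LOC107769293) at 24.9, 11.2 and 5.81 FPKM in OE-NtispH against 8.28, 6.18 and 7.38 FPKM in WT (limma, adjusted p = 0.428). All 3 stood below every WT library in OE-NtispH replicate 3, where NtPAL did not. In WT the levels of NtPAL and palA were nearly equal, with a ratio of 0.995 to 1.02, while in OE-NtispH NtPAL was 1.89, 1.41 and 1.27 times palA in replicates 1, 2 and 3. NtPAL made up 55.5%, 50.3% and 45.8% of the summed FPKM of the 4 loci in OE-NtispH and 37.7% to 41.2% in WT. Tobacco is an allotetraploid, and how the authors' counting shared reads between similar PAL copies is not given in the sources used here, so the split among copies is uncertain, as it is for the caffeoyl-CoA O-methyltransferase and arginine decarboxylase loci below. The sum over the 4 loci was 236.7, 131.6 and 44.1 FPKM in OE-NtispH replicates 1, 2 and 3, against 46.9, 44.1 and 58.2 FPKM in WT replicates 1, 2 and 3.

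The transferase gene hct was at 93.7, 39.4 and 14.8 FPKM in OE-NtispH replicates 1, 2 and 3, against 10.8, 12.2 and 13.2 FPKM in WT replicates 1, 2 and 3. The groups did not overlap, with replicate 3 at 1.12 times the highest WT value. The means were 49.3 ± 40.4 FPKM in OE-NtispH and 12.1 ± 1.21 FPKM in WT (SD, n = 3 each), and the log2 change was 1.59. Of the 5 genes it varied least in WT, where the highest value was 1.22 times the lowest.

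The related gene hqt (LOC107772942), for the quinate transferase that makes chlorogenic acid, was at 31.4, 18.5 and 16.4 FPKM in OE-NtispH and at 16.02, 19.2 and 22.3 FPKM in WT (limma, adjusted p = 0.711). The level of hct was 2.99, 2.13 and 0.905 times that of hqt in OE-NtispH replicates 1, 2 and 3, and 0.593 to 0.675 times in WT. The order of the pair was thus turned round in OE-NtispH replicates 1 and 2 relative to all WT libraries.

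**Figure D2:**
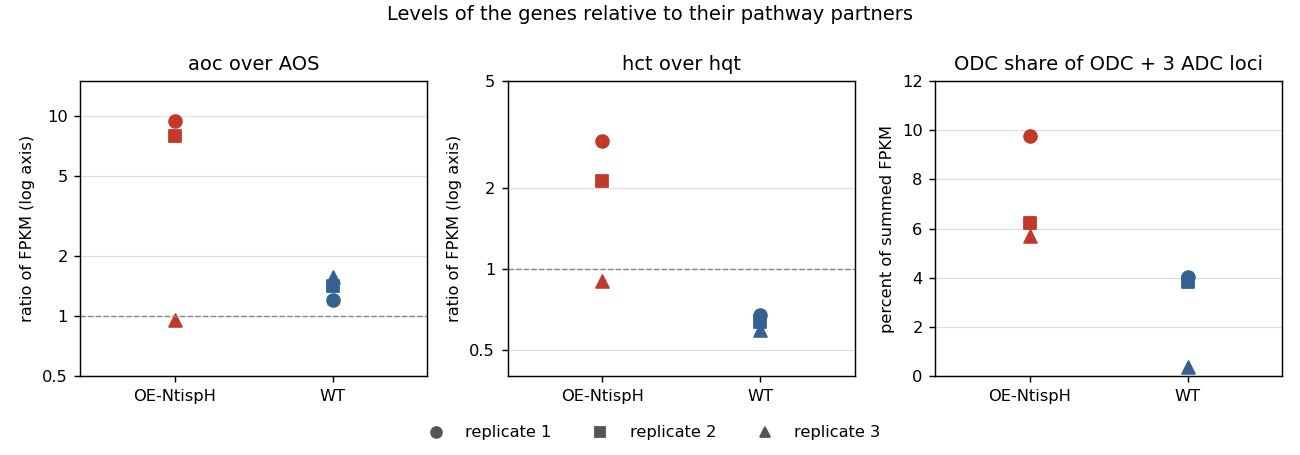
Level of aoc relative to AOS and of hct relative to hqt (ratio of FPKM, log axis, dashed line at 1), and ODC as a percentage of the summed FPKM of ODC and 3 arginine decarboxylase loci, with 1 point per library. Replicates 1 and 2 of OE-NtispH stand at 9.52 and 7.98 for aoc over AOS and at 2.99 and 2.13 for hct over hqt, above all WT points.

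Tested loci of the steps between PAL and hct also had their highest values in OE-NtispH replicates 1 and 2. Of the cinnamate 4-hydroxylase loci, CYP73A47v3 (LOC107791262) was at 18.3, 12.7 and 4.36 FPKM in OE-NtispH, against 3.98 to 4.92 FPKM in WT (limma, adjusted p = 0.226). CYP73A47v1 (LOC107826530) was at 20.3, 18.0 and 6.28 FPKM in OE-NtispH, against 7.39 to 8.05 FPKM in WT (limma, adjusted p = 0.299). The 4-coumarate-CoA ligase gene 4CL1 (LOC107803673) was at 83.7, 34.5 and 12.04 FPKM in OE-NtispH and at 11.2, 15.4 and 12.5 FPKM in WT (limma, adjusted p = 0.310). Its sister 4CL2 (LOC107797004) was at 117.8, 77.1 and 56.4 FPKM in OE-NtispH and at 44.7, 44.6 and 41.6 FPKM in WT. The log2 difference was 0.86 ± 0.24 (SE; limma, adjusted p = 0.0838). The groups did not overlap, which also held, with OE-NtispH higher, for 23.9% of tested loci.

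Beyond hct, CYP98A33v1 (LOC107824233), of the 3-hydroxylase step, was at 9.60, 5.03 and 2.65 FPKM in OE-NtispH and at 2.84, 2.21 and 1.70 FPKM in WT, and the O-methyltransferase gene OMT (LOC107795225) at 50.4, 31.1 and 9.99 FPKM in OE-NtispH against 9.42, 7.81 and 9.48 FPKM in WT. Of the 6 caffeoyl-CoA O-methyltransferase loci, 3 (CCoAOMT4, CCoAOMT5 and CCoAOMT6) had OE-NtispH replicates 1 and 2 above all WT libraries, and CCoAOMT1, CCoAOMT2 and CCoAOMT3 did not. CCoAOMT6 (LOC107810774) was at 8.47, 6.66 and 3.10 FPKM in OE-NtispH and at 1.84, 2.67 and 2.84 FPKM in WT. CCoAOMT1 (LOC107785450) was at 7.29, 2.09 and 2.28 FPKM in OE-NtispH and at 1.62, 2.96 and 16.2 FPKM in WT, with its highest value in WT replicate 3. The 4 tested cinnamyl alcohol dehydrogenase loci, of the last step to lignin monomers, had log2 changes between -0.49 and 0.13. CAD1-1 (LOC107787492) was at 37.6, 38.8 and 37.9 FPKM in OE-NtispH and at 34.9, 37.6 and 32.2 FPKM in WT, above all WT libraries by a narrow margin (limma, adjusted p = 0.488). CAD14 (LOC107789450) stayed between 25.6 and 27.1 FPKM in OE-NtispH and between 26.3 and 28.4 FPKM in WT. CAD19 (LOC107816761) was lower in every OE-NtispH library, at 5.06, 5.41 and 4.57 FPKM in OE-NtispH against 7.24, 7.74 and 7.38 FPKM in WT, a log2 difference of -0.49 ± 0.12 (SE; limma, adjusted p = 0.063), and did not pass the test. THT10 (LOC107789681), for tyramine hydroxycinnamoyltransferase, which couples these acids to amines, was at 9.13, 8.60 and 7.39 FPKM in OE-NtispH against 5.67, 4.21 and 6.48 FPKM in WT (limma, adjusted p = 0.0888). Of 2 flavonoid genes, the chalcone isomerase gene CHI-1 (LOC107779699) was at 6.84, 6.72 and 8.35 FPKM in OE-NtispH against 6.72, 6.61 and 5.98 FPKM in WT, and the flavonol synthase gene NtFLS (LOC107814657) at 1.10, 1.76 and 2.59 FPKM in OE-NtispH against 2.30, 2.83 and 2.21 FPKM in WT.

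ODC had the lowest WT level of the 5 genes and the largest ratio between groups. It was at 17.3, 6.10 and 1.22 FPKM in OE-NtispH replicates 1, 2 and 3, against 0.971, 1.30 and 0.309 FPKM in WT replicates 1, 2 and 3. Replicate 3 lay within the WT range, which was itself wide, the highest WT value being 4.20 times the lowest. The means were 8.19 ± 8.22 FPKM in OE-NtispH and 0.859 ± 0.503 FPKM in WT (SD, n = 3 each). The ratio of means was 9.54, while the log2 change on the log2(FPKM + 1) scale was 1.87, since that scale understates the change of low genes. With a pseudocount of 0.1 in place of 1 it was 2.62.

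Arginine decarboxylase provides the other route to putrescine, and its 3 named loci were also high in OE-NtispH replicate 1. ADC2 (LOC107767963) was at 74.8, 32.2 and 9.55 FPKM in OE-NtispH and at 10.3, 11.5 and 20.7 FPKM in WT (limma, adjusted p = 0.453). ADC1 (LOC107796783) was at 50.6, 44.2 and 4.31 FPKM in OE-NtispH against 7.77, 13.6 and 38.9 FPKM in WT, and adc (LOC107774919) at 34.4, 15.3 and 6.37 FPKM in OE-NtispH against 5.10, 7.48 and 21.8 FPKM in WT. In these 3 loci WT replicate 3 was the highest WT library, whereas ODC was lowest there. ODC made up 9.75%, 6.23% and 5.69% of the summed FPKM of ODC and the 3 loci in OE-NtispH. In WT it made up 4.03%, 3.82% and 0.378%. The 3 named arginine decarboxylase loci together thus exceeded the named ODC locus in all 6 libraries. Copies without a gene name were not counted, so the ornithine and arginine routes as a whole were not compared. SAMDC (LOC107801519), for S-adenosylmethionine decarboxylase, which supplies the aminopropyl groups of spermidine and spermine, was at 288.6, 196.5 and 110.9 FPKM in OE-NtispH and at 103.1, 110.5 and 92.7 FPKM in WT, a log2 difference of 0.85 ± 0.32 (SE; limma, adjusted p = 0.150).

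Loci of the steps from putrescine to nicotine were at or close to 0 in the leaf, and none reached the level needed for testing. The loci of putrescine N-methyltransferase, of A622 and of MPO1, for methylputrescine oxidase, were listed at 0 in every library. BBLa (LOC107791775), of the berberine bridge enzyme-like family of late nicotine synthesis, was at 0.589, 0.309 and 0.167 FPKM in OE-NtispH and at 0.035, 0.094 and 0.150 FPKM in WT. At this low level it too was at least 2 times the highest WT value in OE-NtispH replicates 1 and 2. QPT2 (LOC107829122), for the quinolinate phosphoribosyltransferase of NAD and nicotine synthesis, was at 35.0, 37.6 and 16.5 FPKM in OE-NtispH and at 30.6, 32.9 and 29.8 FPKM in WT (limma, adjusted p = 0.775). The locus AO (LOC107787119), a name that can stand for more than 1 enzyme and whose identity is uncertain here, was at 1.83, 0.861 and 1.22 FPKM in OE-NtispH and at 0.570, 2.34 and 27.0 FPKM in WT (limma, adjusted p = 0.539), and its WT mean rests on replicate 3.

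The 5 genes differed from each other in the balance between OE-NtispH replicates 1 and 2. The oxylipin genes were closest to equal, with a ratio of replicate 1 to replicate 2 of 1.09 for aoc and 0.810 for Lox1. For NtPAL, hct and ODC the ratio was 1.99, 2.38 and 2.83. Replicate 1 was thus the higher for 4 of the 5 genes, and it was so for 57.5% of tested loci. Among the other tested loci of the lists, replicate 1 was the higher for 2 of 6 oxylipin, 19 of 25 phenylpropanoid and 6 of 7 polyamine loci. Their ratios ran from 0.804 to 1.18 (median 0.927) in the oxylipin list, from 0.627 to 3.49 (median 1.44) in the phenylpropanoid list and from 0.930 to 2.32 (median 1.47) in the polyamine list. The lists thus overlapped, and the difference between them was not tested. Over the 34387 tested loci with at least 1 FPKM in both libraries the median ratio was 1.05 and the middle 50% lay between 0.886 and 1.23.

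**Figure D3:**
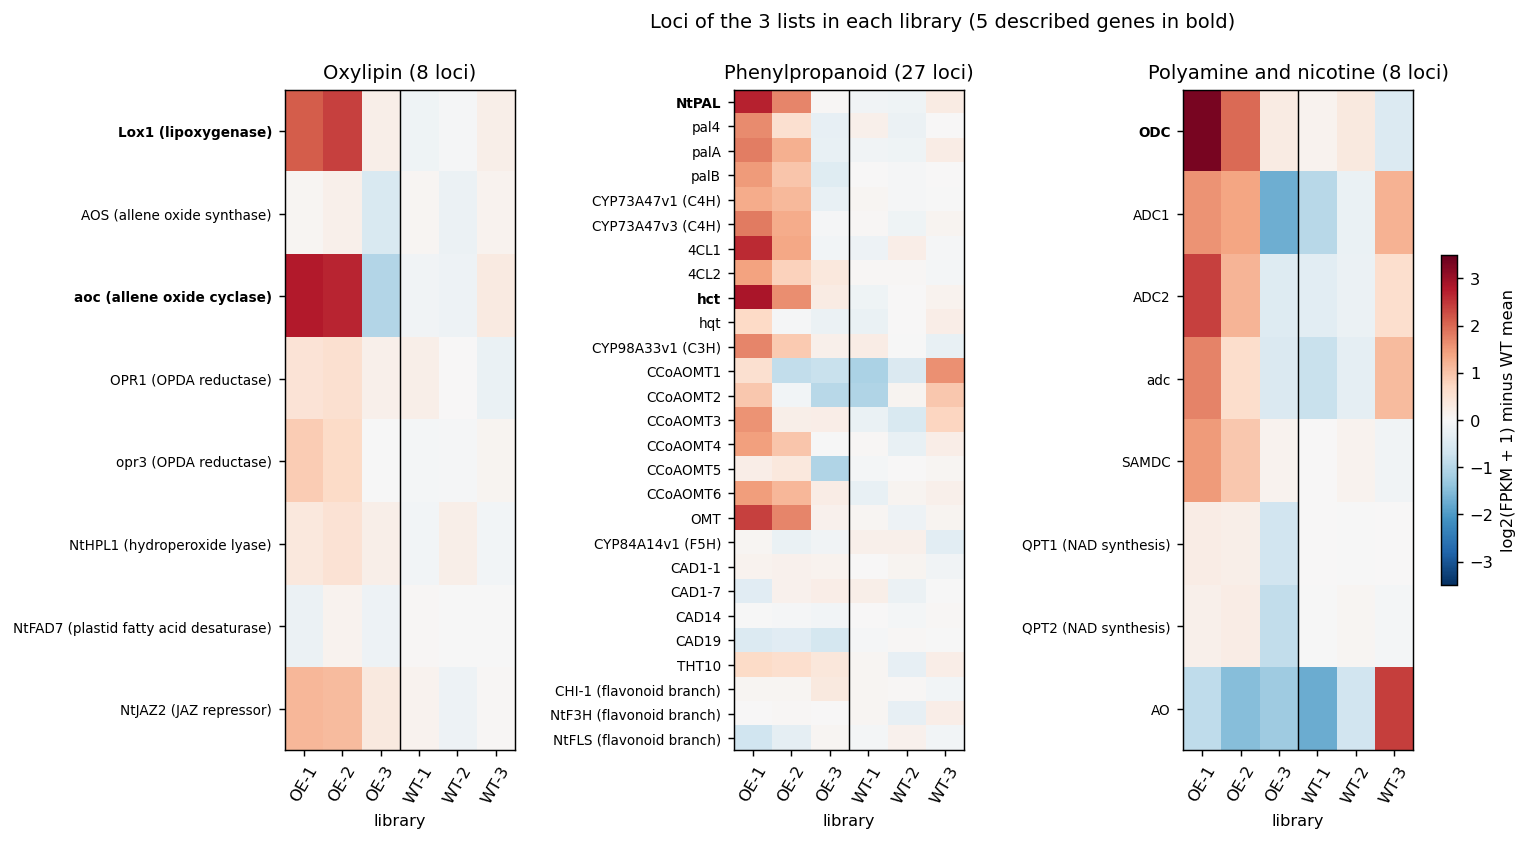
Difference of log2(FPKM + 1) from its WT mean (colour, red above and blue below) for the tested loci of the oxylipin, phenylpropanoid and polyamine lists, in each OE-NtispH library (OE-1 to OE-3) and each WT library, with the 5 genes in bold. OE-1 and OE-2 are both red for the PAL, C4H, 4CL and C3H loci, hct, OMT, ODC, the arginine decarboxylase loci and SAMDC, but not for CCoAOMT1 and CCoAOMT2. OE-3 is pale or blue for most loci, and WT-3 is red for AO, ADC1, adc and CCoAOMT1 among others.

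The values behind this choice can be set beside those of all tested loci. Both OE-NtispH replicates 1 and 2 lay above all WT libraries for 5 of 5 genes and for 32.2% of tested loci. A level of at least 2 times the highest WT value was reached in both OE-NtispH replicates 1 and 2 by 653 loci, or 1.6% of those tested, and 5 of 5 described genes are among them because they were chosen so. Of these 653 loci, 495 did not reach that level in OE-NtispH replicate 3 (75.8% of them, 1.22% of those tested). Taken singly, replicates 1, 2 and 3 of OE-NtispH had 3.76%, 2.5% and 1.75% of tested loci at that level. OE-NtispH replicate 3 lay within the WT range for 32.6% of tested loci, above it for 46.5% and below it for 20.9%, and for 2, 2 and 1 of the 5 genes. The groups did not overlap, with OE-NtispH higher, for 2 of the 5 genes, Lox1 and hct, and for 23.9% of tested loci. Among the 38 other tested loci of the 3 lists this held for 8.

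**Figure D4:**
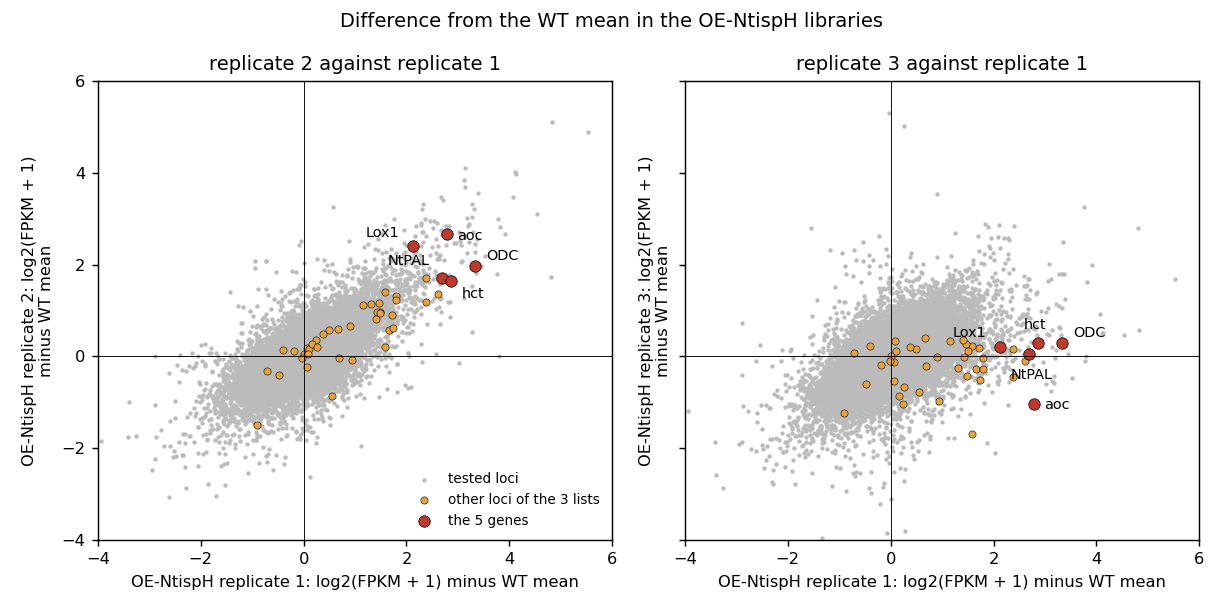
Difference of log2(FPKM + 1) from its WT mean in OE-NtispH replicate 2 (left) and replicate 3 (right), against the same in replicate 1, for all tested loci (grey; 3 loci lie outside the axes), the other loci of the 3 lists (orange) and the 5 genes (red, named). The 5 genes are at the upper right on the left and near 0 on the vertical axis on the right, except aoc, which is lower.

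The comparison of all OE-NtispH with all WT libraries, which the labels imply, was made over all tested loci. With p-values adjusted by the Benjamini-Hochberg method, limma called 737 loci (1.81% of those tested), 506 higher (1.24%) and 231 lower. The 5 genes were fitted with the rest, and 0 of the 5 were called. Nothing is read from the count for the 5 genes, since this contrast entered their choice. Median-of-ratios scaling gave 330 loci (0.81%), of which 136 (0.334%) were higher and 194 lower. Quantile normalization gave 595 loci (1.46%), of which 235 (0.577%) were higher and 360 lower. Apart from the 5 genes, the lists held 60 loci, of which 38 were tested, and limma called 0 of the 38. At an unadjusted p under 0.05 were 10 of the 38 (26.3%), 9 higher and 1 lower, against 26.4% of all tested loci. Of the 10747 such loci among all tested, 7885 were higher and 2862 lower. The 10 became 5 with median-of-ratios scaling and 7 with quantile normalization. By list, 4 of 6 oxylipin loci, 17 of 25 phenylpropanoid loci and 4 of 7 polyamine loci had a log2 change above 0, which 66.3% of all loci had. The median log2 changes of the lists were 0.38, 0.55 and 0.42, against 0.13 over all tested loci. With median-of-ratios scaling they were 0.25, 0.41 and 0.28, against 0.01 over all tested loci. The polyamine median turned to -0.15 without OE-NtispH replicate 1, -0.06 without OE-NtispH replicate 2 and -0.06 without WT replicate 1, and was 1.18 without OE-NtispH replicate 3 and 0.79 without WT replicate 3. The phenylpropanoid median was 0.19 without OE-NtispH replicate 1 and 0.13 with no filter on low values, and the polyamine median was 0.19 with no filter. A level of at least 2 times the highest WT value in both OE-NtispH replicates 1 and 2 was found for 0 of 6, 7 of 25 and 0 of 7 loci. It was found for the 1.6% of all loci given above, and in OE-NtispH replicate 3 for 0 of the 38. The 7 include CCoAOMT4, which is taken up below. That level in replicates 1 and 2 is what the 5 genes were chosen for, and the lists were chosen with earlier results known. Nothing is therefore read from these counts.

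The count for the lists was also taken without OE-NtispH replicate 3. In that library none of the 5 genes reached 2 times the highest WT value. Leaving it out thus follows the pattern they were chosen for. The lists, too, were chosen with earlier results known, so nothing is read from the counts without it. Without OE-NtispH replicate 3 limma called 13 of the 38 loci, all higher, against 5.44% of all loci called higher and 7.63% called in either direction. They were NtJAZ2 and opr3 of the oxylipin list, palA, palB, CYP73A47v1, CYP73A47v3, 4CL1, 4CL2, CYP98A33v1, OMT, CCoAOMT4 and CCoAOMT6 of the phenylpropanoid list, and SAMDC. CCoAOMT4 (LOC107785451) had a WT mean of 0.306 FPKM and passed the filter only through its OE-NtispH values, so that it had to differ. Apart from it, 12 of 37 loci were called without OE-NtispH replicate 3, and 6 of 24 phenylpropanoid loci reached 2 times the highest WT value in both OE-NtispH replicates 1 and 2. Leaving out any one of the other 5 libraries gave 0. The log2 change of the 5 genes lay between 2.20 and 2.72 without OE-NtispH replicate 3, and between 0.81 and 1.31 without OE-NtispH replicate 1. It stayed above 0 whichever library was left out, which follows largely from the choice of genes high in OE-NtispH replicates 1 and 2.

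Likeness to the 5 genes among other named loci was measured as the root mean square difference, over the 6 libraries, between a locus and the mean of the 5 genes in log2(FPKM + 1) relative to WT. It was 0.19 (NtPAL) to 0.48 (aoc) for the 5 genes themselves, which are part of that mean and so close to it by construction. For the closest 10 of 902 other named loci that averaged 1 FPKM or more it was 0.22 to 0.54, with a median of 1.35 over all 902. The closest was Ntbfruc1 (LOC107808557), a beta-fructosidase (invertase) gene, at 12.1, 7.44 and 1.48 FPKM in OE-NtispH and at 1.18, 0.596 and 1.25 FPKM in WT. OMT, 4CL1, ADC2, CYP73A47v3 and palA, described above, were also among the 10, so that 5 of the 10 were list loci, as were 37 of the 902 compared (4.1%). The lists were chosen with earlier results known, so nothing is read from that share of the 10. The remaining 4 were B29 (LOC107820469), the ethylene synthesis gene ACO (LOC107781126), the transporter gene MATE (LOC107779024) and the nitrate reductase gene NIA2 (LOC107785409). B29 was at 5.13, 8.555 and 0.120 FPKM in OE-NtispH and at 0.255, 0.114 and 0.217 FPKM in WT, and so was near 0 outside OE-NtispH replicates 1 and 2. It averaged 1 FPKM or more only through those libraries, so its likeness was partly set by that filter. MATE was at 13.3, 15.6 and 3.44 FPKM in OE-NtispH and at 3.63, 3.70 and 4.03 FPKM in WT. ACO was at 61.9, 17.8 and 6.602 FPKM in OE-NtispH and at 3.90, 4.02 and 10.2 FPKM in WT. NIA2 was at 270.2, 355.0 and 96.2 FPKM in OE-NtispH and at 64.1, 56.1 and 41.6 FPKM in WT, and so was above WT in replicate 3 as well.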

How the data were processed

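The authors deposited 1 table of FPKM values, already scaled by transcript length and by mapped fragments, for 3 OE-NtispH and 3 WT libraries of poly(A) RNA. RSEM, StringTie, HISAT2, Bowtie2 and fastp were used, per the submitters' processing notes. Their roles, the genome build and the treatment of reads from similar copies were not given in the sources used here. Because the table holds no counts, depth is unknown and no counting interval was computed.

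Gene names came from a RefSeq gene table (assembly ASM71507v2, names only), which matched 49268 of 61780 gene numbers. Most matches gave only a locus number, and 1335 of 68476 loci had a gene name. Copies of these genes without a name are therefore missing from the lists, sums, ratios and likeness comparison. Loci that averaged 0.5 FPKM or more were compared as log2(FPKM + 1) with limma 3.58.1 in R 4.3.3 (trend, robust, two-sided, Benjamini-Hochberg at 0.05), without a replicate term. Alternatives were a pseudocount of 0.1, no filter, a minimum of 2 FPKM, rescaling to TPM, median-of-ratios and quantile scaling, limma without trend and robust, the replicate block, and each library left out. The fit was tested on simulated data. Tables and figures used Python 3.11.15, pandas 2.3.3, numpy 2.4.6 and matplotlib 3.10.9.

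The 5 genes and the 3 lists were chosen with earlier results of these data known. Lists were matched by gene name. The names chi (of a chitinase locus) and pao were left out because they also stand for genes of other pathways. The rule for named genes took the 5 genes, list loci past the threshold or else the 3 of smallest p per list, and the 10 most similar named loci. Other list loci were named after their values were seen. Protein and promoter sequences were not analysed here.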

Additional observations from a re-analysis of the deposited data

How the results depend on the processing

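The log2 change of each of the 5 genes stayed above 0 under every alternative. That follows largely from their choice, since every alternative kept OE-NtispH replicate 1 or 2, where they were high. With each library left out the log2 change ranged from 0.81 to 2.72 for aoc, 1.17 to 2.26 for Lox1, 0.88 to 2.20 for NtPAL, 0.96 to 2.25 for hct and 1.13 to 2.65 for ODC. The count of loci past the threshold, 737 in the comparison as labelled, was 38 without a filter on low values, 1375 with a mean of at least 2 FPKM, 330 with median-of-ratios scaling and 53 for limma without trend and robust. With each library left out it ranged from 0 to 3109: 0 without OE-NtispH replicate 1, 1356 without OE-NtispH replicate 2, 3109 without OE-NtispH replicate 3, 0 without WT replicate 1, 1 without WT replicate 2 and 16 without WT replicate 3. The count in the lists, 0 in each, ranged from 0 to 2 (oxylipin), 0 to 10 (phenylpropanoid) and 0 to 1 (polyamine) with each library left out. With quantile normalization it was 1 in the phenylpropanoid list (CAD19, lower). The cause of these differences was not tested. With the replicate number as a block 68 loci passed and 0 of the lists. Same-numbered libraries did not deviate together more than others. Correlations of their deviations from the group means were -0.13, 0.045 and -0.16 for replicates 1, 2 and 3, and -0.094 to 0.19 for differently numbered pairs. With 3 libraries per group these values cannot show whether same-numbered libraries shared a batch. Depth is unknown, so values near 0, such as that of ODC in WT replicate 3, carry an unknown counting error.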
